A study of Rattus norvegicus and Mus musculus with 3 samples.

Results

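Homeostatic astrocyte genes are a set of 10 genes that resting astrocytes of the brain express for their support functions: Slc1a2, Slc1a3, Aqp4, Gja1, Gjb6, Glul, S100b, Aldoc, Aldh1l1 and Atp1b2. They were taken by symbol, ignoring case, from the 30438 genes listed in each rat table and the 34714 listed in the mouse table, and all 10 were found in each. Total RNA of hippocampus was sequenced in 3 libraries, 1 per group. The rat libraries are 1 labelled Sham and 1 labelled 2VO, both of wild-type genotype and 3 to 4 months old. The mouse library is from an animal aged 6 months, of genotype WT, belonging to 3xTg-AD, a model of Alzheimer's disease whose transgenic animals were not analysed here. In this field 2VO commonly means that both common carotid arteries are tied off to lower the blood supply of the brain, and a Sham animal has the operation without the ties. The labels give neither the strain nor the sex of the animals, nor the time between operation and dissection, nor whether several animals were pooled. Since every group is a single library, differences could not be checked on replicates, no test was run, and each comparison is one of libraries. The deposited numbers are normalized expression in a scale that no source used here names, called units below, and the sequencing depth cannot be read from them.

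Astrocytes take up the glutamate that synapses release, turn it into glutamine for return to neurons, clear potassium and carry water along their endfeet on blood vessels. They are joined to each other by gap junctions, through which ions and metabolites spread. These functions rest on the transporters, channels, enzymes and pump subunits in the set. When astrocytes react to injury they induce another group of genes, of which the intermediate filament gene Gfap is the usual marker.

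The rat promoter windows of 4 members are shown, because these genes mark the ends and the middle of the comparison between the rats: Aldoc and S100b had the highest ratios of 2VO to Sham, Aldh1l1 the lowest, and Slc1a3 was level. Each window runs 5′ to 3′ on the gene's strand, from 250 bases before to 50 bases after the annotated start, and comes from RefSeq on the build GRCr8, which is not the rat build named in the submitters' processing notes. Capitals mark the NFI half-site TTGGC, bound by a family of astrocyte transcription factors, and the GC box GGGCGG, each searched on both strands. The windows are chr10:63715294-63715593 on the plus strand for Aldoc, chr20:12381032-12381331 on the minus strand for S100b, chr4:124616970-124617269 on the plus strand for Aldh1l1 and chr2:59557759-59558058 on the minus strand for Slc1a3.
Aldoc: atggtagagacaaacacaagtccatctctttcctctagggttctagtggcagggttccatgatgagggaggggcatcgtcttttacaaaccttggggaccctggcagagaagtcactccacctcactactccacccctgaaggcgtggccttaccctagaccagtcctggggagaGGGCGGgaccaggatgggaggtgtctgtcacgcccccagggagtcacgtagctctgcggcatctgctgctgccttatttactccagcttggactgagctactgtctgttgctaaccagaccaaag
S100b: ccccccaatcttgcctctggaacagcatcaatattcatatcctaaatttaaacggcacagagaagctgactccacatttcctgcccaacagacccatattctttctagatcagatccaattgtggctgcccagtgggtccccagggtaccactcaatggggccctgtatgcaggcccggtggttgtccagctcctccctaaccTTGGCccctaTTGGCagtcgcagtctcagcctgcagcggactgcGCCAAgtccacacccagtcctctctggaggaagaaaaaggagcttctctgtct
Aldh1l1: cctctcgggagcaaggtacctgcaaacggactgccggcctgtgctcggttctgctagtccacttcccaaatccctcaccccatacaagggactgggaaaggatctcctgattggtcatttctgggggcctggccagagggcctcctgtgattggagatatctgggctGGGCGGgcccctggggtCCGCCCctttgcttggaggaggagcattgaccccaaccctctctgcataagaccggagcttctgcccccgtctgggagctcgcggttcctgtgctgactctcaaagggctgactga
Slc1a3: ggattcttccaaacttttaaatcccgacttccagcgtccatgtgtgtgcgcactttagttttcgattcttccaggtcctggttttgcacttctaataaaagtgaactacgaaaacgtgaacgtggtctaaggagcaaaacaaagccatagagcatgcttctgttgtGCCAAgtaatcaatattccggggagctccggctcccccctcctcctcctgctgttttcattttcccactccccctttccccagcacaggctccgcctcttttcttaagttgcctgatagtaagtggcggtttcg

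The S100b window held 3 NFI half-sites and no GC box, the Aldoc window 1 GC box and no half-site, the Aldh1l1 window 2 GC boxes and no half-site, and the printed Slc1a3 window 1 half-site. RefSeq gave 16 windows for the 10 members, since several have more than 1 start. At least 1 NFI half-site stood in the windows of 5 members, 7 windows in all, 3 of them the overlapping windows of Slc1a3, against 45.8% of all 33469 rat windows in the table. A GC box stood in 9 of the 16 windows, against 33.1% of all. These 9 belonged to 7 members, with 2 windows each from Gjb6 and Glul. The SOX site ACAAAG stood in 5 windows, against 18.8%, 3 of which were overlapping windows of Slc1a3. The STAT site TTCNNNGAA, a motif of a pathway active in reactive astrocytes, was found in 0 of the 16 windows, against 8.87% of all. These matches describe letters in short windows and say nothing of binding. Aldoc and S100b, the 2 members with the highest ratios, shared none of these motifs.

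Between the rats the set was close to level. Of the 10 members 9 lay within 1.2-fold of each other in the 2VO and Sham libraries, and only Aldoc, the brain isoform of the glycolytic enzyme aldolase, lay beyond, at 302 units in Sham against 379 in 2VO. The share of all genes within 1.2-fold was 80.6%, so a set of mostly level genes is close to what the 2 libraries show in general. Ratios below are log2 values of 2VO over Sham with 1 unit added to both, which understates the differences of low genes. By that measure 1 member was at least 1.2-fold higher in 2VO, against 12.6% of the 13550 genes averaging 1 unit or more over both rats, and 0 were at least 1.2-fold lower, against 6.81%. At 1.5-fold 0 members lay beyond in either direction, against 1.51% of all genes higher and 0.967% lower. The split of all genes rests on scaling: of those past 1.2-fold 64.8% were higher as deposited and 48.2% after median-of-ratios scaling. The members' median was -0.015 and their mean 0.015, of opposite sign, while the median of all genes was 0.04. As deposited 4 members were higher and 6 lower, beside 58.7% of all genes higher. Only 2 members were higher after each of the scalings and the centring given below. In bulk tissue fewer astrocytes and less RNA per astrocyte cannot be told apart, nor can a level value be told from opposite shifts in both.

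**Figure D1:**
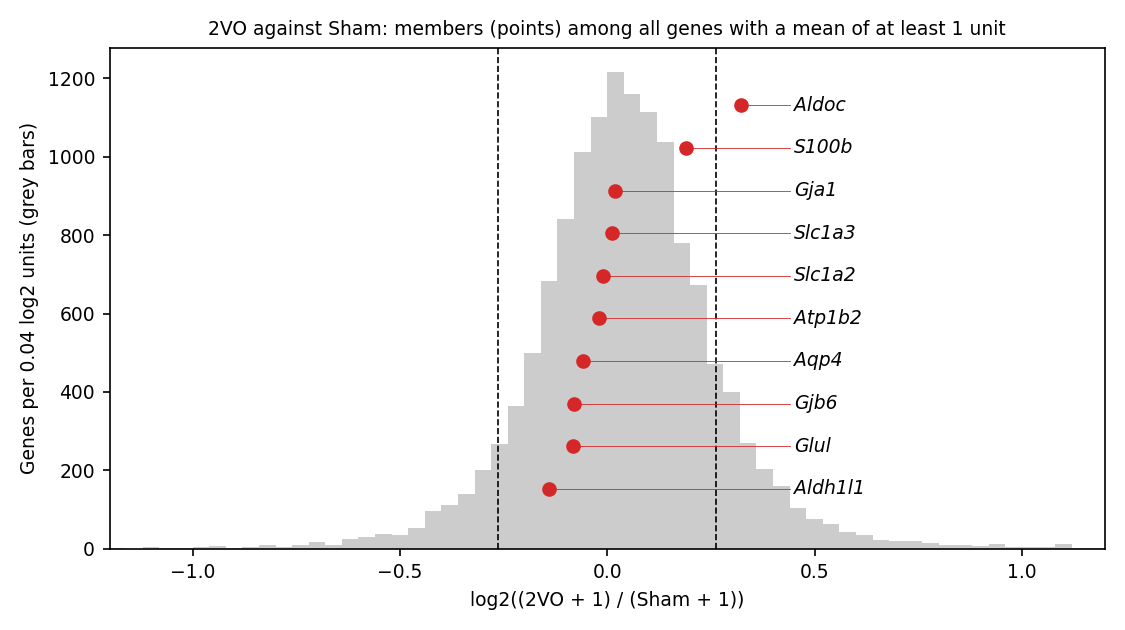
Distribution of the log2 ratio of 2VO to Sham over 13550 genes (grey bars, genes per 0.04 log2 units; 26 genes beyond the plotted range of 1.2 on either side are left out) with the 10 members as red points, spread vertically only for legibility. Dashed lines mark 1.2-fold; Aldoc alone lies outside them, and 8 members sit between -0.14 and 0.019.

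As deposited, the glutamate transporters had the ratios nearest to 0, while Gja1 was nearer to 0 in the 4 settings that rescale or centre the libraries. Slc1a2, which carries most glutamate uptake in the forebrain, was 188 units in Sham against 187 in 2VO, a log2 ratio of -0.011. Slc1a3, the second astrocytic glutamate transporter, was 145 and 147, a ratio of 0.012. Of all genes 95.3% had a larger absolute ratio than Slc1a2 and 94.9% a larger one than Slc1a3. The ratio of Slc1a2 to Slc1a3 was 1.29 in Sham and 1.27 in 2VO. Glul, glutamine synthetase, which makes glutamine from the glutamate taken up, was 399 units in Sham against 377 in 2VO, a log2 ratio of -0.082. Glul therefore had the lowest ratio of the 3, but was only 1.06-fold lower in 2VO than in Sham. Glul has processed copies in rodent genomes, and no source used here says how shared reads were assigned.

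The water channel and the gap junction genes lay within 1.2-fold as well. Aqp4, the water channel of astrocyte endfeet, was 87.2 units in Sham against 83.7 in 2VO, a log2 ratio of -0.058. Gja1, the main astrocytic connexin, was 87.4 and 88.5, a ratio of 0.019. Gjb6, the connexin that appears later in astrocyte maturation, was 10.2 and 9.57, a ratio of -0.081. As deposited the 2 connexins stood on either side of 0, by amounts that 66.4% or more of all genes exceeded, but the sign of Gja1 changed with the scaling. Gja1 was listed at 8.58 times the value of Gjb6 in Sham and 9.25 times in 2VO.

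Atp1b2, the glial beta subunit of the sodium pump, which also acts in cell adhesion, was 109 units in Sham against 107 in 2VO, a log2 ratio of -0.020. Aldh1l1, a folate enzyme used as a general astrocyte marker, was the lowest in value and in ratio, at 6.82 and 6.10, a ratio of -0.14. Even so 46.0% of all genes had a larger absolute ratio. S100b, a calcium-binding protein of astrocytes that some oligodendrocytes also make, was 487 and 556, a ratio of 0.19, which 32.0% of genes exceeded in size. Aldoc had a ratio of 0.32, exceeded in size by 12.6% of genes. S100b and Aldoc were thus within the range that many genes of these 2 libraries covered.

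**Figure D2:**
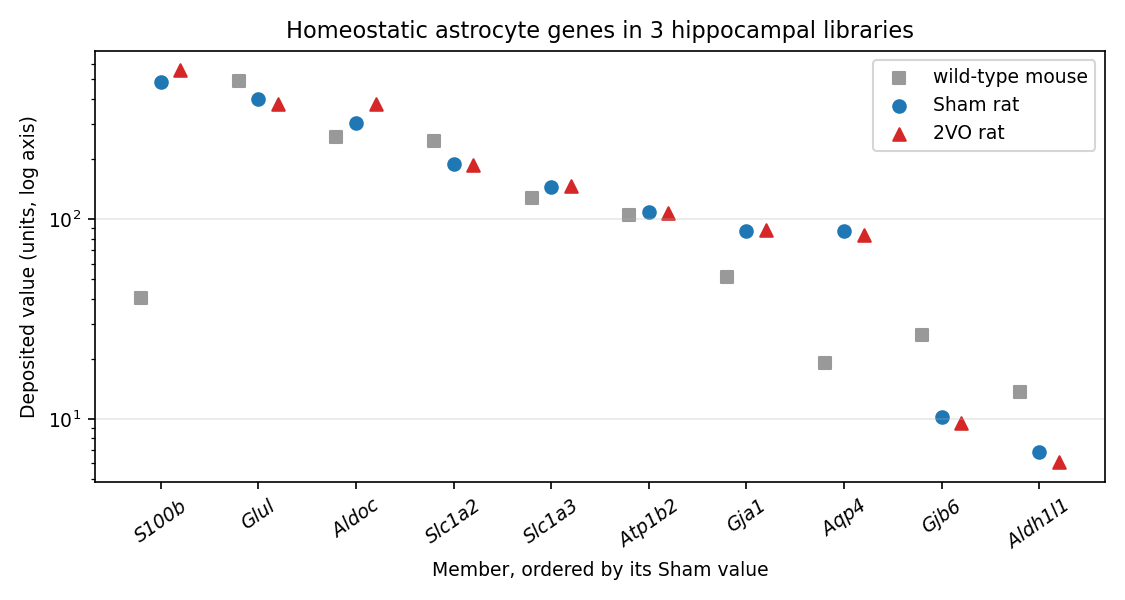
Deposited values of the 10 members (log axis, in the authors' units) in the wild-type mouse (squares), the Sham rat (circles) and the 2VO rat (triangles), 1 library each, ordered by the Sham value. The rat points nearly coincide for 8 genes and stand apart for Aldoc and S100b, while the mouse is far below the rats for S100b, at 40.3 units, and Aqp4, at 19.1.

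Summed over the set, the values were 1821 units in Sham against 1939 in 2VO, or 0.559% and 0.581% of all values. The difference lay in 2 genes. Without S100b and Aldoc the remaining 8 members summed to 1032 in Sham and 1005 in 2VO, and the pair made up 43.3% of the set in Sham and 48.2% in 2VO. The order of the listed values was the same in both rats except that Aldoc passed Glul in 2VO: S100b was highest, then Glul and Aldoc, then Slc1a2, Slc1a3, Atp1b2, Gja1, Aqp4, Gjb6 and Aldh1l1. Gja1 and Aqp4 were 0.209 units apart in Sham, and without replicates no pair of neighbours in this order can be called different. Whether values are per transcript length is not stated, so levels of different genes are ordered only as listed. Across 12366 mouse genes of at least 1 unit Spearman's rho between the value and the median GENCODE transcript length was -0.13, as a description over genes, which are not independent.

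The members' ratios moved with the scaling. Slc1a2 ran from -0.011 to -0.065, Atp1b2 from -0.019 to -0.074 and Aqp4 from -0.056 to -0.11. Over the main and the 8 other settings Aldoc stayed between 0.27 and 0.32 and S100b between 0.14 and 0.19, both higher in 2VO in all 9. Slc1a2, Aqp4, Gjb6, Glul, Aldh1l1 and Atp1b2 were lower in all 9, and the lowest ratio of any of them was -0.19, for Aldh1l1. Slc1a3 and Gja1 were higher in 5 settings and lower in the 4 that rescale or centre the libraries, down to -0.043 and -0.036. These 2 genes therefore have no settled direction. For all 10 members the value farthest from the main one came from median-of-ratios scaling, which shifts log2 ratios by -0.055 before the added unit.

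**Figure D3:**
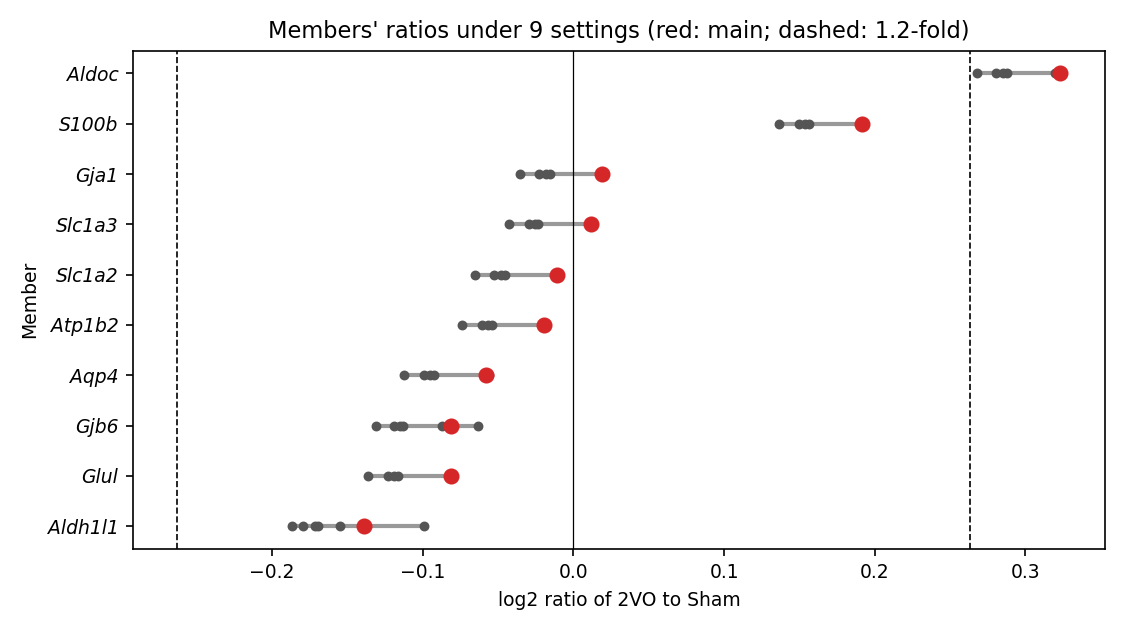
Log2 ratio of 2VO to Sham for each member under the main setting (red) and 8 alternatives (grey points, joined by a line from the lowest to the highest). Dashed lines mark 1.2-fold; Aldoc stays beyond it, from 0.27 to 0.32, and Slc1a3 and Gja1 cross 0.

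The partners of these genes were counted in lists by function, each without the 10 members. Pooled over the 10 lists of pathways and families and counting a gene once, 99 of 115 listed genes averaged 1 unit or more. Of these 62 were higher in 2VO and 37 lower, 16 were at least 1.2-fold higher, beside 12.6% of all genes, and 5 at least 1.2-fold lower, beside 6.81%, so both counts were near the background. The median was 0.08 beside 0.04 for all genes. Of all genes 58.7% were higher in 2VO, and that share moves with the scaling as above.

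Around the glutamate transporters and Glul, 9 of 13 partners were higher, beside 58.7% of all genes, with a median of 0.12. At least 1.2-fold higher was 1, beside 12.6% of all genes. Slc38a3, a transporter that releases glutamine from astrocytes, was 20.4 units in Sham against 22.8 in 2VO. The member of the list with the highest ratio, Arl6ip5, a membrane protein that can bind glutamate transporters, was 76.4 and 92.8. The lowest was Slc1a1, the neuronal glutamate transporter, at 42.7 and 39.0. Of 12 genes for the transport or metabolism of GABA, glycine and serine 2 were at least 1.2-fold higher, beside 12.6% of all genes, and 0 were that much lower, beside 6.81%; the list's median was 0.08. Slc6a9, the glial glycine transporter, had the highest ratio of these, at 25.3 and 35.8, a log2 ratio of 0.48. Slc6a11, the astrocytic GABA transporter, was 17.7 and 18.8. Psph, the last enzyme of serine synthesis, was the lowest at 9.61 and 8.10.

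Of 13 genes of the endfoot and its dystrophin complex, which anchors Aqp4 at blood vessels, 8 were higher and 5 lower, and the median of 0.05 fell below 0 in 2 settings. Mlc1, an endfoot membrane protein, was 141 units in Sham against 127 in 2VO, and Hepacam, its adhesion partner, was 27.9 and 30.8. Kcnj10, the inward rectifier potassium channel of astrocytes, had the highest ratio, at 24.9 and 30.5, a log2 ratio of 0.28. The other aquaporins of the list had 2 genes that averaged 1 unit or more, both lower, and Aqp9 was 5.04 and 3.50.

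Among 7 other connexin and pannexin genes that averaged 1 unit or more, 6 were higher in 2VO, beside 58.7% of all genes. Of these 3 passed 1.2-fold, beside 12.6% of all genes. The 1 past 1.5-fold, beside 1.51% of all genes, was Gjd2, the connexin of electrical synapses between neurons. It was 2.64 units in Sham against 6.01 in 2VO, low values whose log2 ratio ran from 0.59 to 1.12 over 8 settings. Gjb2, the third astrocytic connexin, was the lowest, at 1.37 and 1.17, too low to be read closely. Of 14 genes of the sodium pump and of potassium or chloride handling 12 were higher, beside 58.7% of all genes. At least 1.2-fold higher were 4, beside 12.6% of all genes, and the list's median was 0.15. Fxyd7, a brain-specific regulatory subunit of the pump, was 48.0 units in Sham against 76.2 in 2VO, a ratio of 0.66. The bicarbonate transporter gene Slc4a4 was the lowest, at 20.6 and 17.8.

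Aldoc had a close partner in Aldoa, the aldolase of muscle and most tissues, at 749 units in Sham against 923 in 2VO, a log2 ratio of 0.30. The ratio of Aldoc to Aldoa was 0.404 in Sham and 0.410 in 2VO, so the 2 isoforms differed by like amounts. Of 7 relatives of S100b 5 were lower and 2 higher in 2VO, beside 58.7% of all genes higher, with a median of -0.17. At least 1.2-fold lower were 2, beside 6.81% of all genes, and 1 was that much higher, beside 12.6%. The 2 relatives with the highest values, S100a16 at 65.4 and 61.3 and S100a13 at 35.2 and 36.3, lay within 1.2-fold. S100a6 was 2.73 and 1.74 and S100a11 was 0.965 and 1.68, both too low to be read closely. Of 14 genes of astrocyte energy metabolism 7 were higher and 7 lower. Mt3, the metallothionein of the brain, had the lowest ratio of the list, at 533 and 378, a log2 ratio of -0.49, and Cpt1a, which admits fatty acids to mitochondria, the highest, at 5.41 and 7.996. Of 15 transcription and fate regulators 8 were higher and 7 lower, and the median of 0.04 was below 0 in 1 setting. Id3, a target of bone morphogenetic protein signalling, was 40.8 and 30.8, and the receptor gene Notch2 was 5.56 and 6.90. Their summed values were 302 in Sham and 301 in 2VO.

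**Figure D4:**
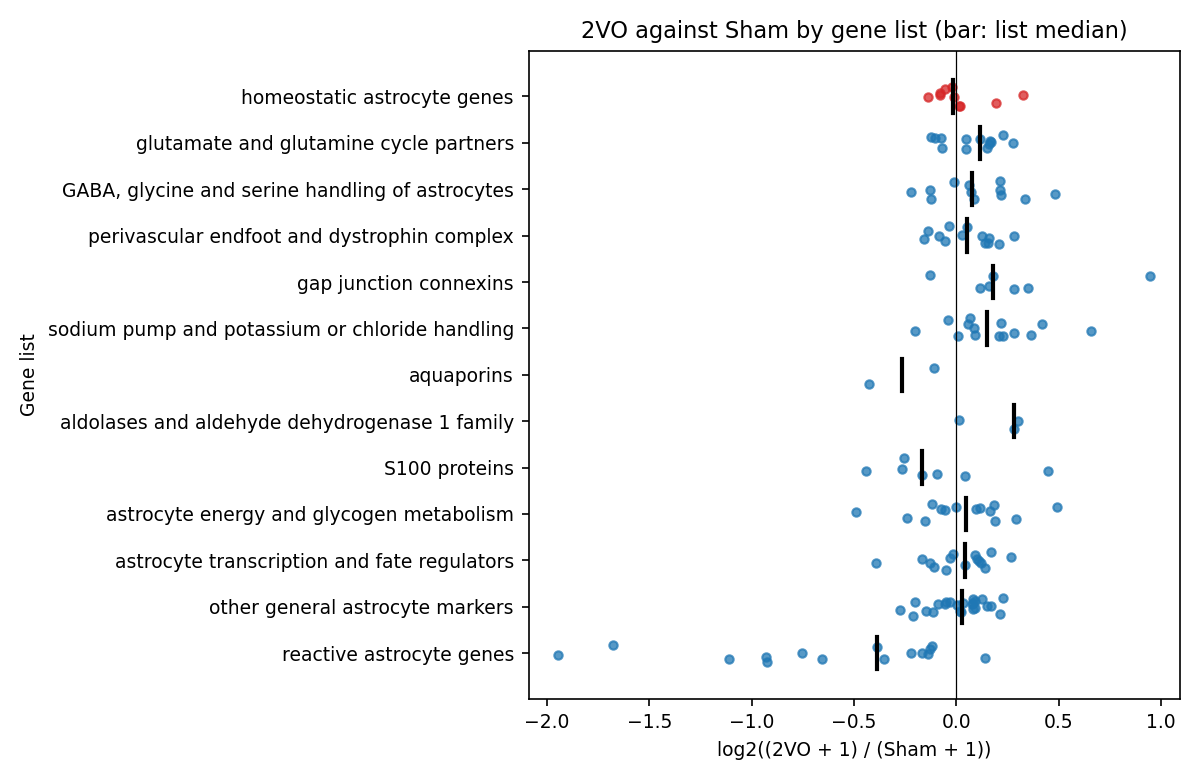
Log2 ratio of 2VO to Sham for each gene averaging 1 unit or more, by list (red, the 10 members; blue, other genes, with members left out), with the list median as a bar. The members lie between -0.14 and 0.32 with a median of -0.015. The reactive astrocyte genes reach -1.95, for Lcn2, a low gene at 4.28 units in Sham and 0.372 in 2VO.

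The reactive astrocyte genes, some of them already known to differ in these libraries when the list was written, stood apart from the set. Of 15 that averaged 1 unit or more 14 were lower in 2VO, where 58.7% of all genes were higher. At least 1.5-fold lower were 7, beside 0.967% of all genes. Most of these 7 had low values, such as Serpina3n at 2.33 units in Sham and 0.754 in 2VO. The list's median was -0.39, but -0.22 over genes averaging 5 units or more. Gfap was 778 units in Sham against 360 in 2VO, a log2 ratio of -1.11, so it equalled 42.7% of the members' sum in Sham and 18.6% in 2VO. Of 24 other general astrocyte markers 15 were higher and 9 lower, and their median of 0.03 changed sign in 4 settings. At least 1.2-fold higher were 0, beside 12.6% of all genes, and 1 was that much lower, beside 6.81%. A level homeostatic set thus stood beside a lower Gfap in the same 2VO library.

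Markers of other cell types differed between the 2 libraries, and their part in the members' values was not tested. Oligodendrocyte markers were higher in 2VO in 13 of 13, and 12 of them summed to 3940 units in Sham against 4943 in 2VO, beside the higher S100b. Neuron markers were higher in 12 of 14, with sums of 2680 and 3125. Microglia markers were lower in 10 of 12, with sums of 324 and 269. The sums of the 12 endothelial and mural markers were 57.4 and 59.4, and those of the 11 ependymal and choroid plexus markers 9.52 and 19.3. The latter sums rest on low values. Ttr, named after its values were seen, was 0.434 units in Sham and 4.75 in 2VO. Of 7 ependymal and choroid plexus markers averaging 1 unit or more 6 were higher and 1 lower. The medians of the oligodendrocyte, neuron and microglia lists kept their sign in all 9 settings. No marker of these lists was listed at 0 in either rat. The dentate and pyramidal neuron markers of the hippocampus went against the general neuron list. Of 10 that averaged 1 unit or more 7 were lower in 2VO, 4 by at least 1.2-fold, beside 6.81% of all genes. The median of these markers, -0.19, was below 0 in all 9 settings. Their sums over 12 genes were 616 and 522, and 1 of them, Spink8, named after its values were seen, was at only 0.07 units in both rats.

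In the mouse the members were compared as levels and ranks only, since species, age, annotation and library differ together and cannot be told apart. The glutamate handling genes ranked near the top in each animal. Slc1a2 was 246 units in the mouse, Slc1a3 127 and Glul 491, at rank percentiles of 99.4, 98.4 and 99.9 among 16251 symbols shared with the rat, against 98.7, 98.2 and 99.7 in Sham. The set had a median rank percentile of 97.6 in Sham, 97.5 in 2VO and 95.8 in the mouse. Not all members ranked so high: Aldh1l1, the lowest in each library, was at 55.9 in Sham, 52.9 in 2VO and 73.7 in the mouse. Gjb6 was at 64.7 in Sham, 62.6 in 2VO and 86.7 in the mouse. Atp1b2 at 104 units was also close to the rats, and Aldoc at 259 was 0.761 times the mean of the 2 rats.

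The order of the remaining members differed between the species. S100b was 40.3 units in the mouse against 487 and 556 in the rats, a rank percentile of 91.9 against 99.8 in both rats. Aqp4 was 19.1 against 87.2 and 83.7, and Gja1 was 51.1 against 87.4 and 88.5. Gjb6 went the other way, at 26.4 units against 10.2 and 9.57, and so did Aldh1l1, at 13.7 against 6.82 and 6.10. Gja1 was listed at 1.93 times the value of Gjb6 in the mouse, against 8.58 and 9.25 times in the rats. On the scale with 1 unit added, S100b and Aqp4 were at least 2-fold lower in the mouse than the mean of the 2 rats, as were 11.3% of 11457 shared genes, and Gjb6 was at least 2-fold higher, as were 5.38%. Aldh1l1 fell just short, at a log2 ratio of 0.97. The members' median log2 ratio of mouse to rats was -0.12, beside -0.16 for all of these genes. Gapdh, a gene of every cell, was listed at 6.36 units in the mouse and 1031 in Sham, so single values across the species carry little weight. The mouse Gfap value was 110.

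**Figure D5:**
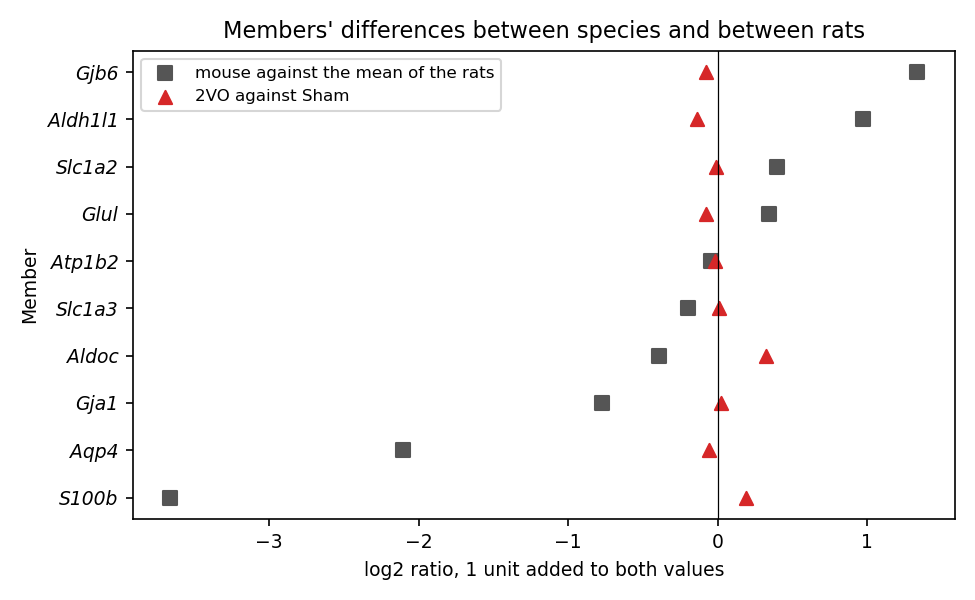
Log2 ratio of each member, with 1 unit added to both values, between the mouse and the mean of the 2 rats (squares) and between 2VO and Sham (triangles), 1 library each for the mouse, Sham and 2VO. The species values run from -3.66 for S100b to 1.34 for Gjb6, and the rat values stay between -0.14 and 0.32.

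The genes nearest to the set's median level over the 3 libraries, by Euclidean distance of log2(value + 1) among 16241 other shared symbols, were Naca, Atp5g1 and Rack1, at distances of 0.07, 0.08 and 0.13. Naca was 128 units in Sham, 131 in 2VO and 73.5 in the mouse. With 3 libraries this likeness is one of level.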

How the data were processed

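Total RNA of hippocampus was extracted with TRIzol, and 1 µg per library was prepared with the TruSeq RNA kit, per the labels' protocols. The deposited tables hold 1 signal value per gene, normalized and never below 0, and no source used here names the unit, the quantifier or the annotation. The submitters' processing notes name the builds GRCm39 and mRatBN7.2 and the tools HISAT2 2.1.0, fastp 0.21.0 and DESeq2, without roles. Depth cannot be read from the values.

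The libraries were compared as deposited. Ratios are log2((2VO + 1) / (Sham + 1)) for genes averaging 1 unit or more; with 1 library per group no test was run. Called means past 1.2-fold or 1.5-fold. The members, lists, thresholds and alternatives were chosen with earlier results of these data known. Named genes of the pathway and family lists are those at least 1.5-fold apart with a mean of at least 5 units, each list's highest and lowest ratio, and 10 direct partners, some of which are not reported here; Gfap and Gapdh were named after their values were seen. Of the nearest genes the first 3 were taken. The 8 alternatives were 3 scalings, 0.25 or 4 units added, no filter or a mean of 5 units, and lowess centring (span 0.3). Count scaling foreseen for a count table was not needed. Promoter windows matched all 10 members by symbol in the RefSeq table for GRCr8. The ratio calculation was tested on simulated data. The software was matplotlib 3.10.9, statsmodels 0.14.6, scipy 1.17.1, numpy 2.4.6 and pandas 2.3.3 under Python 3.11.15.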

Additional observations from a re-analysis of the deposited data

How the results depend on the processing

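No paired analysis was possible because each group holds 1 library. The members' median ratio of -0.015 became -0.050 with equal upper quartiles, -0.070 with median-of-ratios scaling, -0.052 when the sums excluding the 50 top genes were made equal and -0.057 after centring on a lowess trend, since each of these lowers all ratios by a like amount. With 0.25 or 4 units added, no filter on low values or a mean of at least 5 units it moved by less than 0.005. Under all 8 alternatives 1 member, Aldoc, stayed at least 1.2-fold higher, 0 were that much lower and 0 passed 1.5-fold. Of all genes 1701 were at least 1.2-fold higher and 923 lower. These counts were 870 and 488 with 4 units added, and 1048 and 532 over genes averaging 5 units or more, which tests fewer genes. At 1.5-fold 205 were higher and 131 lower. These became 342 and 215 with 0.25 units added, 70 and 50 with 4 units added, and 97 and 59 over genes averaging 5 units or more. Ranked among the 11457 shared symbols averaging 1 unit or more, the members' median rank percentile was 96.6 in Sham, 96.4 in 2VO and 94.0 in the mouse. The single library per group and the unknown depth limit every value, and no alternative replaces a replicate.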
